A study of Mus musculus with 6 samples.

Results

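Cytosolic nucleic acid sensors, with the adaptor and kinases that act beside or below them, were followed here as 10 genes chosen by symbol: Zbp1, Ifih1, Dhx58, Mavs, Eif2ak2, Aim2, Tbk1, Ikbke, Ifi204 and Ifi205. All 10 were found among the 40773 gene symbols of the count table. RNA came from RAW 264.7, an established mouse macrophage line with no engineered genotype in the labels, so replicates are cultures of 1 line and not animals. Cells of the LPS group received lipopolysaccharide (LPS), a bacterial product sensed by Toll-like receptor 4, at 100 ng/mL for 24 h, and in the LPS plus 3A2 group the same dose was given for the same time with 3A2, a neutralizing antibody against the membrane metalloproteinase MMP14, at 50 µg/mL. Each group held 3 cultures, so both groups shared the LPS stimulus and differed in the antibody. Untreated cells and a control antibody were not analysed here, and induction of these genes by LPS is therefore not measured.

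Cells carry receptors that detect viral or misplaced nucleic acid in the cytosol. IFIH1 (MDA5) binds long double-stranded RNA and signals through MAVS on mitochondria, DHX58 (LGP2) modulates that response, and EIF2AK2 (PKR) answers double-stranded RNA by halting translation. AIM2 and its PYHIN relatives, IFI204 and IFI205 among them, belong to a family of DNA-binding proteins, and ZBP1 binds Z-form nucleic acid and can start necroptosis through RIPK3. TBK1 and IKBKE are the kinases that phosphorylate interferon regulatory factors downstream of several of these receptors, and also downstream of Toll-like receptor 4. Many of these genes are themselves induced by type I interferon, which acts through promoter elements called ISREs.

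A short stretch around each ISRE-like match in the promoters of the members is shown. The members were chosen by symbol and not by promoter sequence. Since many are known to be induced by interferon, the element is not independent of that choice. RefSeq promoters (GRCm38.p6, 250 bases before to 50 bases after the start site) were on hand for 7 of the 10 members: Ifih1, Mavs, Eif2ak2, Aim2, Tbk1, Ikbke and Ifi205. The motif searched on both strands was GAAA, any 2 bases, GAAA, and its letters are in capitals in sequences written 5′ to 3′ on the strand of the gene.
Ifih1 (chr2:62646206-62646233, minus strand): gaagagaatcGAAACAGAAAccgatctg
Eif2ak2 (chr17:78882535-78882564, minus strand): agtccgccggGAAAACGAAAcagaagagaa
Ifi205, upstream match (chr1:174031870-174031899, minus strand): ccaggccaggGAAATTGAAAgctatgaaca
Ifi205, match on the opposite strand (chr1:174031713-174031742, minus strand): ataccccattTTTCACTTTCtcagttactg
The motif was present in 3 of these 7 promoters and in 3.44% of all 32851 promoters in that table. In Ifih1 and Eif2ak2 it began 32 and 18 bases after the annotated start base, and in Ifi205 matches began 134 bases before and 23 bases after it. An NF-κB type motif (GGGA, any base, TTTCC) was in 0 of the 7 and in 0.411% of all promoters, and a STAT type motif (TTC, any 3 bases, GAA) was in Eif2ak2 alone and in 8.3% of all. These are matches of letters only, and Ifi205, with a match on each strand, was the member with the fewest reads.

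The mRNA levels of the sensors and kinases with LPS plus 3A2 lay close to those with LPS alone. Of the 10 members, 9 passed the filter on low counts, and of these edgeR's quasi-likelihood test called 0 higher and 0 lower (Benjamini-Hochberg adjusted p under 0.05), where 0% of the 11498 genes tested passed in either direction. DESeq2 and limma-voom also called 0 members. At an unadjusted p under 0.05 there was 1 member, Zbp1, which stood higher, against 6.51% of all genes in either direction and 3.43% higher. The smallest adjusted p among the members was 0.719, that of Zbp1, by edgeR. Fold changes of the 9 ran from 0.922 to 1.39, with 4 above 0 and 5 below on the log2 scale, where 50.4% of all genes lay above and 49.6% below. Their median log2 fold change was -0.06, beside 0.00 for all genes, and the median absolute value was 0.09 and 0.10. For 8 of the 9, all but Zbp1, and for 79.6% of all genes, the 95% interval stayed inside a 1.5-fold change up or down. In bulk RNA a smaller share of cells with a transcript and less of it per cell cannot be told apart.

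**Figure D1:**
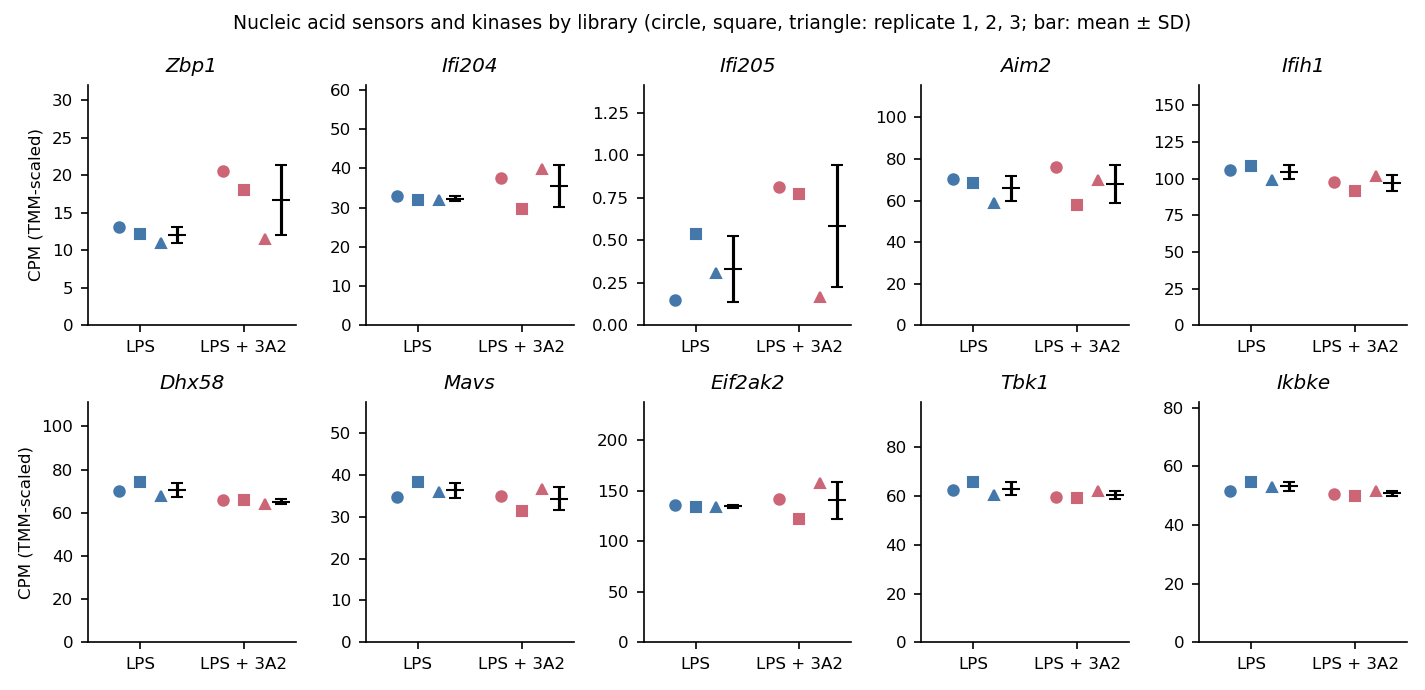
Counts per 1000000 of the TMM-scaled library total (CPM, linear axes from 0) of the 10 members in each library, with LPS in blue, LPS plus 3A2 in red, symbols for replicates 1 to 3, and bars for the mean ± SD (n = 3). Zbp1 reads 20.6 and 18.0 in LPS plus 3A2 replicates 1 and 2 and 11.5 in replicate 3, and Dhx58 is the only tested member whose groups do not overlap.

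Levels between genes were compared as CPM per kilobase of exon, with lengths from GENCODE M21, since the annotation behind the counts is not given. Eif2ak2 stood first at 26.4 CPM per kb with LPS (26.2 to 26.7 over 3 libraries), followed by Dhx58 at 21.6 (20.7 to 22.7). Next came Aim2 at 18.8 (16.8 to 20.1), Tbk1 at 16.1 (15.5 to 16.8) and Ifih1 at 12.8 (12.2 to 13.3). Mavs lay at 10.8 (10.3 to 11.4), Ifi204 at 9.06 (8.94 to 9.26), Ikbke at 5.90 (5.73 to 6.07) and Zbp1 at 3.41 (3.09 to 3.69). Ifi205 was last at 0.0789 (0.0351 to 0.128), and no neighbours in this order overlapped over the LPS libraries, although Aim2 and Tbk1 came within rounding. With LPS plus 3A2 the ranges of Mavs and Ifi204 overlapped, as did those of Aim2 with Dhx58, and Zbp1 (3.26 to 5.84) overlapped Ikbke (5.55 to 5.74).

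Zbp1, the Z-nucleic acid sensor, had the largest fold change among the members tested, and it came from 2 of the 3 antibody-treated cultures. With LPS the counts were 89, 91 and 71, or 13.0, 12.2 and 10.9 CPM. With LPS plus 3A2 they were 127, 117 and 69, or 20.6, 18.0 and 11.5 CPM. LPS plus 3A2 replicates 1 and 2 lay above every LPS library, while replicate 3 lay inside the LPS range, so the groups overlapped. The exact 95% counting interval of replicate 3 was 8.96 to 14.6 CPM, below that of replicate 1 (17.2 to 24.5) and of replicate 2 (14.9 to 21.6). Intervals of this kind cover counting error only. Group means were 12.0 ± 1.07 CPM and 16.7 ± 4.68 CPM (SD, n = 3). The fold change was 1.39 (95% interval 1.07 to 1.80), and the edgeR adjusted p was 0.719. Without LPS plus 3A2 replicate 3 the fold change was 1.60 (edgeR adjusted p = 0.182), and without replicate 1 of that group it was 1.23 (0.884).

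LPS plus 3A2 replicate 3, the antibody-treated library in which Zbp1 lay inside the LPS range, also stood apart in composition. Mean mitochondrially encoded mRNA, given as a log2 deviation from the 6-library mean, reached 0.45 in LPS plus 3A2 replicate 3 and between -0.21 and 0.11 in the others. Mean ribosomal protein mRNA was -0.12 there and between 0.01 and 0.05 elsewhere. This library was the highest of the 6 for 27.5% of all tested genes and the lowest for 27.5%. With the difference of these measures as a covariate, Zbp1 stood at 1.66-fold with an edgeR adjusted p of 0.0696, which did not pass. That difference was 0.57 in LPS plus 3A2 replicate 3 and between -0.23 and 0.11 elsewhere. The fit therefore cannot separate composition from that 1 library, where Zbp1 was lowest within the antibody group. Over all genes it called 28, against 0 without the covariate. The part of library composition in the value of Zbp1 was not tested.

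The genes whose 6 library values followed Zbp1 most closely were Adat3, Ypel4, Celsr3, Trmo and Nt5m, chosen by the smallest root mean square difference in log2 deviation over the 6 libraries. That difference was 0.0870, 0.0896, 0.0973, 0.102 and 0.119, against a median of 0.362 for 11497 genes and 0.335 to 0.398 for the other tested members. These 5 genes held only 71 to 208 counts over all libraries, and how far counting error shapes their pattern was not tested. No other member was among them, and the difference of each other member from Zbp1 was near the median of all genes.

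The RNA sensors Ifih1 and Dhx58 stood slightly lower with the antibody. Ifih1 measured 106, 109 and 99.2 CPM with LPS and 97.4, 91.6 and 102 CPM with LPS plus 3A2, or 0.927-fold (95% interval 0.831 to 1.03). Its groups overlapped, since LPS plus 3A2 replicate 3 lay above LPS replicate 3. Dhx58 measured 70.0, 74.3 and 67.7 CPM with LPS and 65.7, 65.9 and 63.9 CPM with LPS plus 3A2, or 0.922-fold (0.822 to 1.03). All 3 antibody-treated libraries lay below all 3 LPS libraries, which held for this 1 member of 9 and for 6.46% of all genes, or 12.3% counting both directions. The SD of log2 CPM over its antibody-treated libraries was 0.024, below the 0.072 that counting error alone gives. Neither gene passed, at an edgeR adjusted p of 0.813 each. In GENCODE an antisense gene, Dhx58os, overlaps 141 of the 3272 exonic bases of Dhx58, and the strand setting of the counts is not given.

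Mavs, the mitochondrial adaptor that relays the IFIH1 signal, was measured at 34.6, 38.3 and 35.9 CPM with LPS and 34.9, 31.2 and 36.6 CPM with LPS plus 3A2. The groups overlapped, with LPS plus 3A2 replicate 2 lowest, and the fold change was 0.943 (95% interval 0.811 to 1.10). Eif2ak2, the kinase PKR that phosphorylates the translation factor eIF2α, was nearly constant with LPS and spread with the antibody. It read 136, 134 and 134 CPM with LPS, and 142, 122 and 158 CPM with LPS plus 3A2. The antibody-treated libraries thus lay on both sides of the LPS group, and the fold change was 1.04 (0.926 to 1.17). It turned to 0.927 with the composition measure as a covariate and to 0.979 without LPS plus 3A2 replicate 3.

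**Figure D2:**
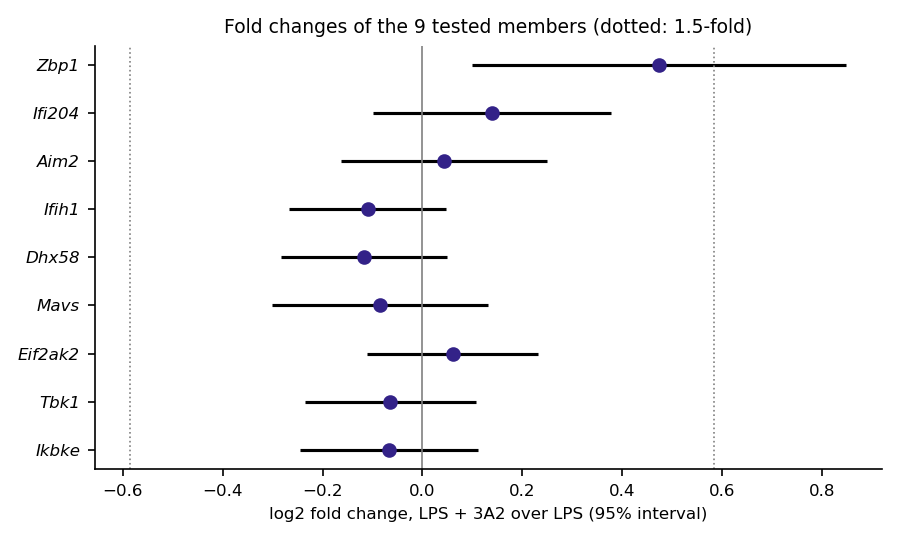
Log2 fold change of LPS plus 3A2 over LPS for the 9 tested members, with 95% intervals and dotted lines at 1.5-fold. The interval of Zbp1 (0.10 to 0.85) is the only one that leaves out 0, and the other 8 lie inside the dotted lines.

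Tbk1 and Ikbke, which encode the kinases shared by several of these pathways, varied least from library to library among the members. Tbk1 read 62.7, 65.8 and 60.6 CPM with LPS and 59.6, 59.3 and 62.3 CPM with LPS plus 3A2. Ikbke read 51.7, 54.7 and 53.1 CPM with LPS and 50.6, 50.0 and 51.8 CPM with LPS plus 3A2. In both genes the groups overlapped by the highest antibody-treated library, replicate 3. Fold changes were 0.956 (95% interval 0.850 to 1.08) for Tbk1 and 0.955 (0.844 to 1.08) for Ikbke. The highest library exceeded the lowest by 1.11-fold for Tbk1 and by 1.09-fold for Ikbke, the smallest such ratios among the 10 members. With LPS and with LPS plus 3A2, the SDs of log2 CPM were 0.059 and 0.039 for Tbk1. For Ikbke they were 0.041 and 0.025. Counting error alone gives 0.069 and 0.075 for Tbk1, and 0.075 and 0.081 for Ikbke. These SDs are therefore too low to measure the spread of cultures.

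Among the PYHIN members, Aim2, whose product assembles an inflammasome on DNA, did not differ beyond its spread. It measured 70.3, 68.4 and 59.0 CPM with LPS and 76.1, 58.0 and 70.0 CPM with LPS plus 3A2. The antibody-treated libraries held both the highest and the lowest value, at a fold change of 1.03 (95% interval 0.893 to 1.19). Ifi204 measured 33.0, 31.8 and 31.9 CPM with LPS and 37.5, 29.6 and 39.7 CPM with LPS plus 3A2, or 1.10-fold (0.934 to 1.30). Replicates 1 and 3 of the antibody group lay above the LPS libraries and replicate 2 below them. Without LPS plus 3A2 replicate 2, Ifi204 stood at 1.20-fold with an edgeR adjusted p of 0.255, and without replicate 3 at 1.04-fold (0.993). With the composition measure as a covariate both genes turned below 0, Ifi204 at 0.969-fold and Aim2 at 0.951-fold.

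Ifi205 was barely detected, with 1, 4 and 2 counts in the LPS libraries and 5, 5 and 1 with LPS plus 3A2, and it fell below the filter. Summed over a group and without scaling this is 0.338 CPM (exact 95% interval 0.136 to 0.696) and 0.585 CPM (0.292 to 1.05). The ratio was 1.73, with counting error alone allowing 0.612 to 5.26. By a two-sided exact permutation test over the 6 libraries p was 0.3, and such a test cannot go below 0.1 here. A ratio anywhere in that interval is compatible with these counts.

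Sequence shared between PYHIN genes limits how far these reads can be assigned. Of all distinct 100-base windows in the GENCODE transcripts of Ifi204, 10.7% occur in transcripts of another gene, 9.56% in Ifi211 alone. For Ifi205 the share is 15.0%, all of it with Ifi211 or Mndal. In the other 8 members at most 1.49% of windows are shared. Values of Ifi204 and Ifi205 are therefore uncertain by the way shared reads were counted, which is not given.

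Single libraries stood high or low for several members at once. LPS plus 3A2 replicate 2 was the lowest library for 7 of the 9 tested members, Zbp1 and Dhx58 excepted, and for 16.8% of all genes. LPS replicate 2 was the highest for 5 of the 9 and for 13.2% of all genes. Within the antibody group, Ifih1, Mavs, Eif2ak2, Tbk1, Ikbke and Ifi204 shared 1 order, replicate 3 over replicate 1 over replicate 2, an order held by 23.9% of all genes. Mean mitochondrial mRNA followed the same order in these libraries, at 0.45, 0.11 and -0.14 (log2 deviation). With the mitochondrial over ribosomal measure as a covariate, fold changes were 0.881 for Ifih1, 0.890 for Mavs and 0.927 for Eif2ak2. They were 0.935 for Tbk1, 0.946 for Ikbke and 0.969 for Ifi204, and 0 passed by edgeR. Ifih1, Mavs, Tbk1 and Ikbke lay below 1 without the covariate too. That measure has the same order in these libraries (0.57, 0.11 and -0.16). The choice of these genes by order thus favours lower values in that fit, and nothing is concluded from them. Summed over the 10 genes, the LPS libraries held 578, 589 and 553 CPM and the LPS plus 3A2 libraries 586, 526 and 596 CPM, so the groups overlapped.

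**Figure D3:**
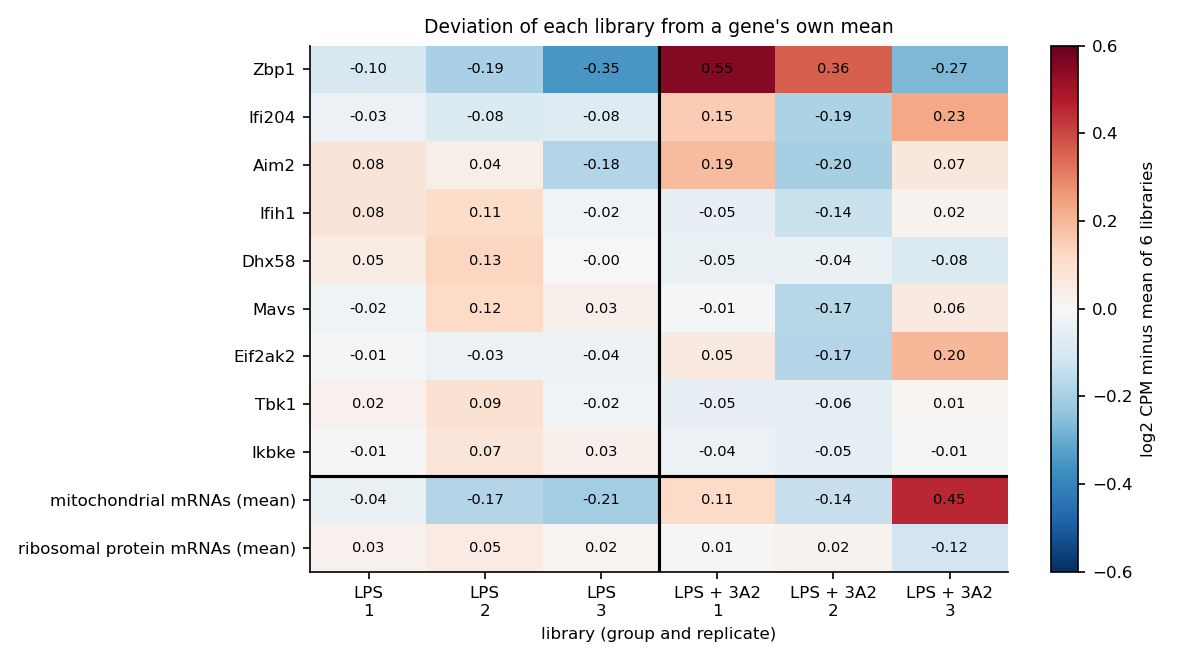
Log2 CPM of each tested member minus its own mean over the 6 libraries, with the mean of mitochondrial and of ribosomal protein mRNAs in the bottom rows. LPS plus 3A2 replicate 2 is below 0 in every member but Zbp1, and the mitochondrial mean reaches 0.45 in LPS plus 3A2 replicate 3.

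Spread within a group was set beside the spread that counting error alone gives at the mean count. The SD of log2 CPM for Eif2ak2 was 0.014 over the LPS libraries and 0.19 over the LPS plus 3A2 libraries, where counting error alone gives 0.047 and 0.049. For Ifi204 these SDs were 0.027 and 0.22, where counting error gives 0.096 and 0.097. The LPS values of both thus lay below counting error and the antibody values above it, so the SDs with LPS are too low to measure the spread of cultures, and no ratio is given. For Zbp1 the SDs were 0.13 and 0.43, with 0.16 and 0.14 from counting error. Of the 9 members 6 were more spread with the antibody, or 66.7%, where 64.7% of all genes were. Each SD rests on 3 libraries.

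Among other RNA sensors, cofactors and effectors, 25 of 26 listed genes were tested, 16 above 0 and 9 below, and 0 passed by edgeR. Traf6, a ubiquitin ligase of innate signalling, read 40.4, 39.3 and 36.7 CPM with LPS and 44.0, 44.0 and 50.6 CPM with LPS plus 3A2, or 1.19-fold (95% interval 1.03 to 1.37, adjusted p = 0.719 by edgeR). Dhx15, an RNA helicase, stood at 1.11-fold (1.00 to 1.22). Ddx58, which encodes the RNA sensor RIG-I, stood at 1.02-fold (0.924 to 1.12). For Traf6 and Dhx15 all antibody-treated libraries lay above all LPS libraries, and the list held 4 such genes and 1 in the opposite direction, or 5 of 25 where 5.84% and 6.46% of all genes did so.

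The DNA-sensing cGAS-STING axis and its nucleases showed as little difference, with 9 genes above 0 and 10 below of 19 tested, and 0 passing by edgeR. Cgas, the cytosolic DNA sensor that makes cyclic GMP-AMP, stood at 0.980-fold (95% interval 0.840 to 1.14) and its receptor gene Sting1 at 0.991-fold (0.846 to 1.16). Hmgb1, a DNA-binding protein, read 224, 226 and 226 CPM with LPS and 259, 260 and 244 CPM with LPS plus 3A2, with no overlap, or 1.13-fold (1.03 to 1.23, adjusted p = 0.719 by edgeR). With the composition measure as a covariate Hmgb1 passed, at 1.16-fold and an edgeR adjusted p of 0.0463. That fit called 28 of 11498 genes, where the fit without the covariate called 0.

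Of 11 further PYHIN genes 7 were tested, 5 above 0 and 2 below. Their median log2 fold change was 0.13, beside 0.00 for all genes, and 0 passed by edgeR. With Ifi204 counted, 6 of 8 had antibody-group values in the order replicate 3 over replicate 1 over replicate 2, as did 23.9% of all genes. That order was taken from the members in these same data, Ifi204 among them, so nothing is concluded from this count. Ifi211 read 11.7, 9.10 and 8.75 CPM with LPS and 7.95, 5.85 and 8.35 CPM with LPS plus 3A2, or 0.747-fold (95% interval 0.563 to 0.992, adjusted p = 0.748 by edgeR). It is the gene with which Ifi204 and Ifi205 share most windows, and it lay below 0 while Ifi204 lay above.

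The kinase adaptors and interferon factors had 9 genes above 0 and 6 below of 15 tested, with Irf7, the interferon regulatory factor of the amplification loop, at 1.02-fold (95% interval 0.935 to 1.12). Of the interferon genes in this list, Ifnb1 had 6 counts over the 6 libraries and Ifna4 had 0. Partners of ZBP1 in cell death were split 4 and 4, at 0.872-fold to 1.05-fold. Among them, Ripk3, the necroptosis kinase, stood at 0.944-fold (0.846 to 1.05) and Mlkl, the pore-forming protein it activates, at 1.05-fold (0.924 to 1.19). Nlrp3, the most abundant of that list, stood at 0.968-fold (0.883 to 1.06).

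AIM2 signals through the adaptor ASC, encoded by Pycard, and Pycard had 0 counts in all 6 libraries, which allows up to 0.0760 CPM over the libraries together. Aim2 mRNA was thus present in cells with no detected Pycard mRNA, in both groups. Of the 6 other inflammasome partners tested 3 lay above 0 and 3 below. Il18, a cytokine matured by caspase-1, stood at 1.22-fold (95% interval 1.00 to 1.49, adjusted p = 0.748 by edgeR), with overlapping groups.

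The eIF2 kinases and genes of the integrated stress response, the pathway of EIF2AK2, had 4 above 0 and 8 below of 12 tested. Tarbp2, a double-stranded RNA binding protein that restrains PKR, read 19.9, 16.6 and 21.3 CPM with LPS and 15.9, 13.7 and 14.2 CPM with LPS plus 3A2, with no overlap, or 0.759-fold (95% interval 0.619 to 0.931, adjusted p = 0.719 by edgeR). Ppp1r15a, which directs dephosphorylation of eIF2α, stood at 0.841-fold (0.711 to 0.996), with overlapping groups. Over all 7 lists, 92 genes were tested and 0 passed by edgeR, DESeq2 or limma-voom. At an unadjusted p under 0.05 there were 4 higher and 3 lower by edgeR, against 3.43% and 3.09% of all genes. Groups did not overlap for 7 higher and 7 lower, against 5.84% and 6.46% of all genes.

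**Figure D4:**
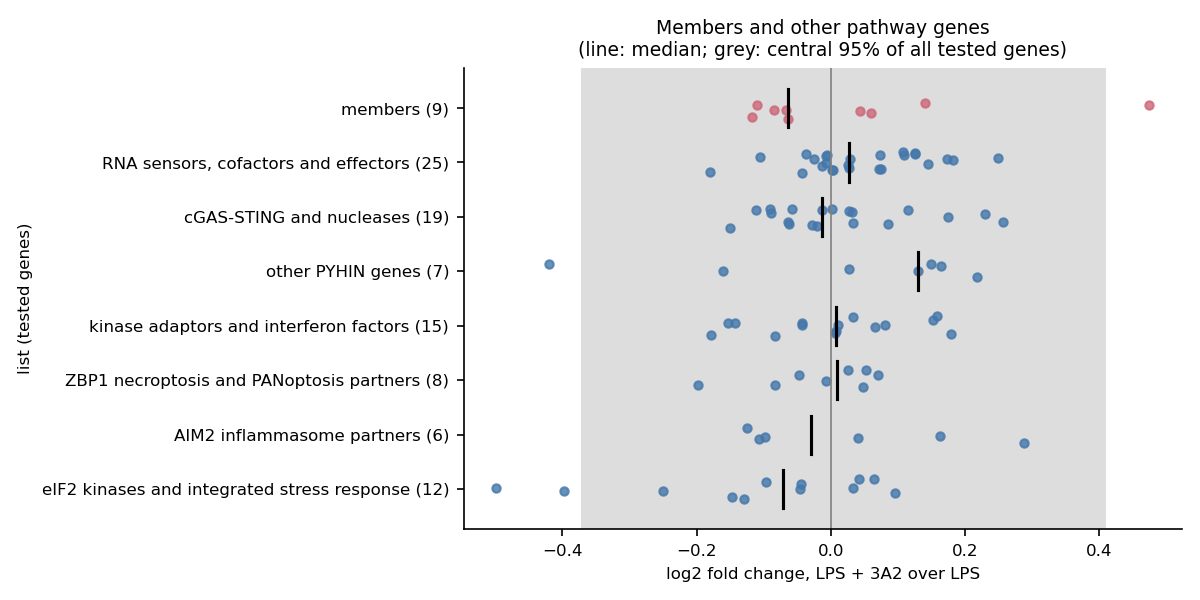
Log2 fold change of every tested member (red) and of tested genes in 7 lists of the same pathways (blue), with black lines at medians and grey for the central 95% of all genes (-0.37 to 0.41). Zbp1 at 0.47 is the only member outside the grey band.

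Libraries held 6060732 to 7432553 counts, and 14998 to 15309 genes had a count in each. The 10 macrophage markers were all tested, 2 above 0 and 8 below, with 0 passing by edgeR. Their summed level was 7331 to 7390 CPM with LPS and 6389 to 6836 CPM with LPS plus 3A2, and most of that sum was Lyz2, at 0.871-fold (95% interval 0.805 to 0.943). Without Lyz2 the other 9 summed to 2990 to 3069 CPM and 2730 to 2986 CPM. Csf1r stood at 0.878-fold (0.802 to 0.962) and Spi1 at 0.864-fold (0.769 to 0.971). The sum of lymphocyte and plasma cell markers reached 0.669 CPM in the highest library, with 8 of 10 at 0 counts throughout. That of neutrophil, mast and dendritic cell markers reached 7.76 CPM (6 of 10 at 0, Ly6g and Flt3 among them). Nearly all of that sum was S100a8, present in every library at 5.70 to 7.47 CPM. The sum of fibroblast, endothelial and epithelial markers reached 3.01 CPM (4 of 10 at 0, Epcam and Cdh1 among them). Most of it came from Pecam1 and Cdh5, with 37 and 41 counts over all libraries. Mmp14, which encodes the target of the antibody, had 1, 5 and 0 counts with LPS and 2, 6 and 3 with LPS plus 3A2, too few to compare.

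Leaving out libraries moved the members in different ways. The 5 genes below 0 with all libraries, Ifih1, Dhx58, Mavs, Tbk1 and Ikbke, were below 0 with each library left out, as Zbp1 and Ifi204 were above. Eif2ak2 fell below 0 without LPS plus 3A2 replicate 3, at 0.979-fold, and Aim2 fell below 0 without LPS replicate 3 (0.980-fold) or without LPS plus 3A2 replicate 1 (0.970-fold). In none of these fits did a member pass by edgeR.

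**Figure D5:**
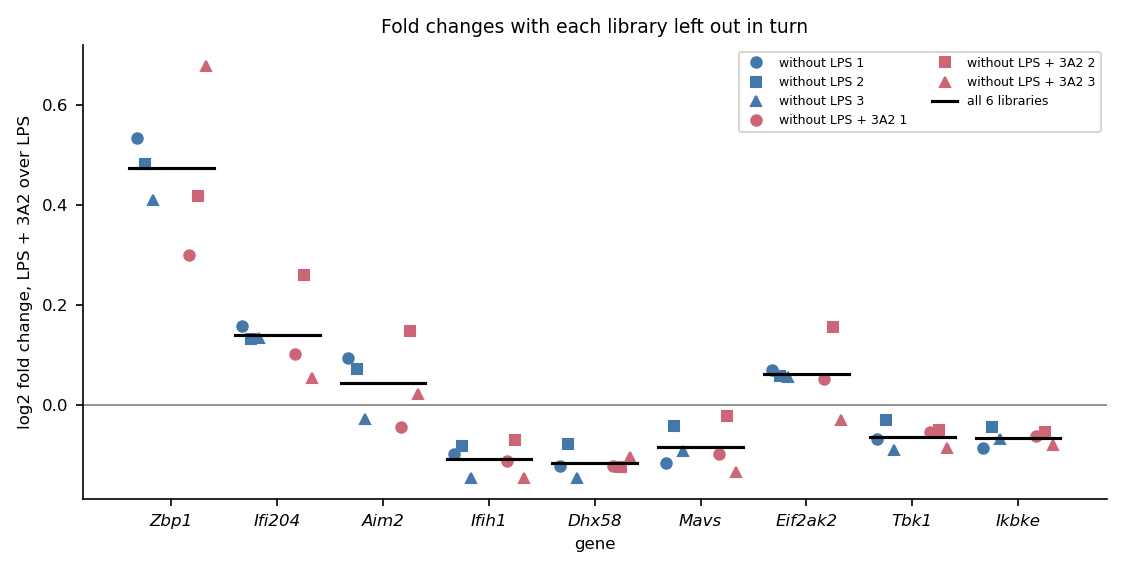
Log2 fold change of each tested member with all 6 libraries (black line) and with 1 library left out (blue for an LPS library, red for an LPS plus 3A2 library, symbols for replicates 1 to 3). Zbp1 ranges from 0.30 to 0.68, and Eif2ak2 and Aim2 cross 0.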

How the data were processed

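The authors deposited raw read counts per gene symbol, 1 column per library, per the file header. The submitters' processing notes name HISAT2 and edgeR without a role or version and GRCh38, a human build, although the symbols are mouse. The sources used here do not give the annotation, the counting program or the strand setting. Ribosomal RNA was depleted and libraries were strand-specific and paired-end, per the labels' protocols. Another 5 unnamed columns were not used.

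Counts were filtered with filterByExpr (11498 genes of 18179 with a count), scaled by TMM into CPM and fitted by robust quasi-likelihood in edgeR 4.0.16 (R 4.3.3), two-sided, with Benjamini-Hochberg adjustment over all genes tested. The labels state biological triplicates. DESeq2 1.42.0 and limma 3.58.1 were alternatives. The test was checked on simulated data in which, apart from the changed genes, all libraries had the same composition. That check held no library like LPS plus 3A2 replicate 3 and no changes as small as those of the members. No libraries were duplicates (chi-square per degree of freedom 3.46 to 23.5).

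The members and lists were chosen with earlier results of these data known. In each list, genes with an unadjusted p under 0.05 were named, at most 4, or else the most abundant. Ddx58, Cgas, Sting1, Ifnb1, Ifna4, Pycard, Ripk3 and Mlkl were named outside this rule, after their values were seen. So were the markers Ly6g, Flt3, Epcam, Cdh1, Pecam1 and Cdh5. The 5 genes nearest to Zbp1 came from a fixed rule. Only 1 listed PYHIN symbol, Pydc3, did not match the table.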

Additional observations from a re-analysis of the deposited data

How the results depend on the processing

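Members passed in 0 of 126 fits of a member under an alternative, and 120 kept their direction. The exceptions were Eif2ak2, Aim2 and Ifi204 with the mitochondrial over ribosomal index as covariate (log2 fold changes -0.109, -0.073 and -0.046), and leaving out 1 library for Eif2ak2 (-0.030 to 0.155) and Aim2 (-0.044 to 0.147). Over all genes, 16 were called without a filter on low counts, 1 by DESeq2, 28 with the index covariate and 0 to 25 with 1 library left out, the 25 without LPS plus 3A2 replicate 2. The fit with the replicate block called 1 gene and 0 members. Same-numbered libraries did not deviate together (correlations -0.01, 0.03 and -0.16). With 3 cultures per group this cannot settle whether the numbers pair the cultures. Of the pathway genes 1, Hmgb1, was called with the index covariate. Members whose groups do not overlap numbered 1 to 5 of 9 with 1 library left out, where 19.8% to 31.3% of all genes did not overlap. The 5 came without LPS plus 3A2 replicate 3 (21.6% of all genes). The cause of these changes was not tested. Ifi205, with 18 counts in all, is limited by depth. The antibody-treated libraries of Zbp1 differ beyond counting error.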
